A study of Mus musculus with 2 samples.

Results

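Specific granules are the storage organelles that neutrophils fill midway through their development, and 8 genes for proteins of these granules or of the same stage were followed here: Camp, Ngp, Ltf, Lcn2, Fcnb, Cd177, Itgb2l and Orm1. They were chosen by symbol among the 26124 genes of the count tables, and all 8 had UMIs (unique molecular identifiers, 1 per captured transcript) in both libraries. Single-cell RNA sequencing (10x Genomics 3′ v3.1) compared spleen suspensions of 1 wild-type mouse and 1 sickle cell disease (SCD) mouse, in which beads had removed unwanted cells so that dendritic cells (DCs) were enriched. Neutrophils were therefore cells that the enrichment had left behind, and their numbers do not measure the spleen. Both mice were untreated and 12 to 16 weeks old, the study names the controls as littermates, and the model is kept on a mixed background. The wild-type mouse was homozygous for Hbatm1Paz, which removes the mouse alpha globin genes, heterozygous for the beta globin deletion Hbbtm1Tow and hemizygous for the human sickle globin transgene Tg(HBA-HBBs)41Paz. The SCD mouse was homozygous for all of these alleles. By these labels both animals lacked the mouse alpha globin genes and carried the transgene. Yet the mouse alpha globin genes Hba-a1 and Hba-a2 were among the leading genes of the erythroid cluster. That cluster joined 60 wild-type and 77 SCD cells, and the source of these transcripts was not tested. With 1 library per group there was no replicate and no test, every interval in brackets is a 95% interval of counting error, and animal, library and genotype cannot be told apart.

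Neutrophils develop in the bone marrow from precursors that make azurophil granule enzymes, through dividing cells that switch to specific granule proteins, to mature cells that make gelatinase granule proteins and have largely stopped transcribing the earlier sets. The transcription factor C/EBP epsilon, encoded by Cebpe, is required for the specific granule programme. Immature neutrophils leave the marrow when demand is high, and the spleen can itself make granulocytes in the mouse.

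The members include 3 abundant proteins of the granule matrix. Camp encodes the cathelicidin antimicrobial peptide precursor, Ngp a cystatin-related granule protein, and Ltf the iron-binding protein lactoferrin. Lcn2 encodes lipocalin 2, which binds bacterial siderophores. Fcnb encodes ficolin B, a lectin of the complement system. Cd177 is a surface glycoprotein that is stored in granule membranes, Itgb2l an integrin beta chain related to Itgb2, and Orm1 encodes orosomucoid, an acute-phase protein. In GRCm38 (GENCODE vM21 annotation) 3 members lay on chromosome 9 and 2 on chromosome 2. Camp spans chr9:109847379-109849617 (minus strand, 4 exons), Ngp chr9:110419747-110423012 (plus, 4 exons) and Ltf chr9:111019271-111042767 (plus, 17 exons). Lcn2 spans chr2:32384633-32388252 (minus, 5 exons) and Fcnb chr2:28076378-28084885 (minus, 9 exons). Cd177 lies at chr7:24743983-24760311 (minus, 17 exons), Itgb2l at chr16:96422288-96443619 (minus, 15 exons) and Orm1 at chr4:63344560-63348163 (plus, 6 exons). Itgb2l was the only member that overlapped another gene, Igsf5 on the opposite strand.

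Because the members moved together along maturation, their promoters were searched for the C/EBP letters TTNNGCAA and TGNNGCAA on both strands in the 250 bases before the RefSeq start (GRCm38.p6). Of 7 members with an entry, 5 held a match (Camp, Ngp, Ltf, Lcn2 and Fcnb), and Cd177 and Itgb2l held none. Across 32851 promoters of the same length, 18.1% held at least 1 match and 2.28% held 2 or more, as Camp, Ngp and Fcnb did. The stretches are shown for the most abundant members, Camp and Ngp, and for those with the earliest and the latest mean position along maturation, Fcnb and Cd177, with matches in capitals. They are written on the strand of the gene, at chr9:109849574-109849603 for Camp (minus), chr9:110419558-110419746 for Ngp (plus), chr2:28084886-28085128 for Fcnb (minus) and chr7:24760312-24760561 for Cd177 (minus).
Camp: gtctcaTGAGGCAAtgagagtcTGAAGCAA
Ngp: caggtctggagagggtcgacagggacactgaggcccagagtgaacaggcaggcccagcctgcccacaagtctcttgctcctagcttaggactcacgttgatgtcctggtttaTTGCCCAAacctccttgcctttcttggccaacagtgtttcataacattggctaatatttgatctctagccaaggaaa
Fcnb: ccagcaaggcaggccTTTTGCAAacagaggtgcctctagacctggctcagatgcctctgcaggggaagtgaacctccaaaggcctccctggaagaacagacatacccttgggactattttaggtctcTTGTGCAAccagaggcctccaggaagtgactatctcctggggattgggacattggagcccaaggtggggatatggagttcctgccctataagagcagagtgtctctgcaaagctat
Cd177: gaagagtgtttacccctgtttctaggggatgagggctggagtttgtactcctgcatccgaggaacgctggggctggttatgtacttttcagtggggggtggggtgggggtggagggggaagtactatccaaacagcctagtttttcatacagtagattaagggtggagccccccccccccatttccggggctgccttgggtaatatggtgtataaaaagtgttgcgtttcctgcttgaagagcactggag
The Camp stretch is limited to 30 bases around its 2 matches, 141 and 125 bases before the RefSeq start. GENCODE begins the gene 161 bases ahead of that start, so both Camp matches fall inside the annotated gene. Ngp was cut at the GENCODE start, which leaves out its other match 11 bases before the RefSeq start, inside the annotated gene. For Lcn2 the GENCODE start lies 513 bases ahead of the RefSeq start, so its only match, at 216 bases before the latter, falls inside the annotated gene. A match is a description of letters and no evidence of binding.

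There were 10845 wild-type cells with 97880318 UMIs (median 4991 per cell) and 13447 SCD cells with 189688217 UMIs (median 8596). The filters of the study's methods kept 9446 and 10661 cells, and 88 barcodes occurred in both libraries, 22 of them among kept cells. Joint clustering without the 8 genes gave 24 clusters. By markers that include no member, 7 clusters were neutrophil-like, here called neutrophils, with 4373 wild-type and 7011 SCD cells, and 1 cluster was granulocyte precursor-like, with 13 and 167 cells. Different clusters held most neutrophils in the libraries: cluster 0, led by Il1b, Dusp1 and Fos, had 77.0% of neutrophils from the wild-type library and 4.01% of those from SCD, while cluster 1 had 5.79% and 28.4%. The median neutrophil held 2453 UMIs in the wild-type and 6803 in the SCD library.

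All 8 members were higher in SCD than in wild-type neutrophils. Summed over the 8 genes, 47791 of every 1000000 UMIs (CPM) were theirs in wild-type neutrophils and 94678 in SCD neutrophils, a ratio of 1.98 (1.98 to 1.99). Camp went from 19547 CPM in wild-type to 37575 CPM in SCD neutrophils, a ratio of 1.92 (1.91 to 1.93). Ngp was at 14731 and 31759 CPM, a ratio of 2.16 (2.15 to 2.17). These antimicrobial and matrix genes supplied most of the signal. Lcn2 was at 7289 and 13784 CPM, a ratio of 1.89 (1.88 to 1.90), and Ltf at 5284 and 9703 CPM, a ratio of 1.84 (1.82 to 1.85). Cd177, the surface member, was at 598 and 1228 CPM, a ratio of 2.05 (2.01 to 2.10). The other 3 genes were scarce. Fcnb was at 132 and 292 CPM, a ratio of 2.20 (2.10 to 2.31), Orm1 at 89.9 and 168 CPM, a ratio of 1.86 (1.76 to 1.97), and Itgb2l at 119 and 170 CPM, a ratio of 1.42 (1.35 to 1.496). Itgb2l thus had the smallest ratio of the members. Since each 3′ UMI stands for 1 captured transcript whatever its length, these levels are set beside each other as counts of captured transcripts. Whether capture differed between genes was not tested.

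On the log2 scale with a pseudocount of 5 CPM, 3 of 8 members (Ngp, Fcnb and Cd177) were at least 2-fold higher in SCD neutrophils and none was at least 2-fold lower. Among all 2455 expressed genes, 1.18% were that much higher and 19.6% that much lower. The members' median log2 ratio was 0.93, against -0.41 over all expressed genes. Scaling by the median of ratios, which takes a log2 ratio of -0.43 as no difference, put 7 of 8 members past 2-fold and changed the split of all genes from 29 higher and 480 lower to 159 higher and 248 lower.

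**Figure D1:**
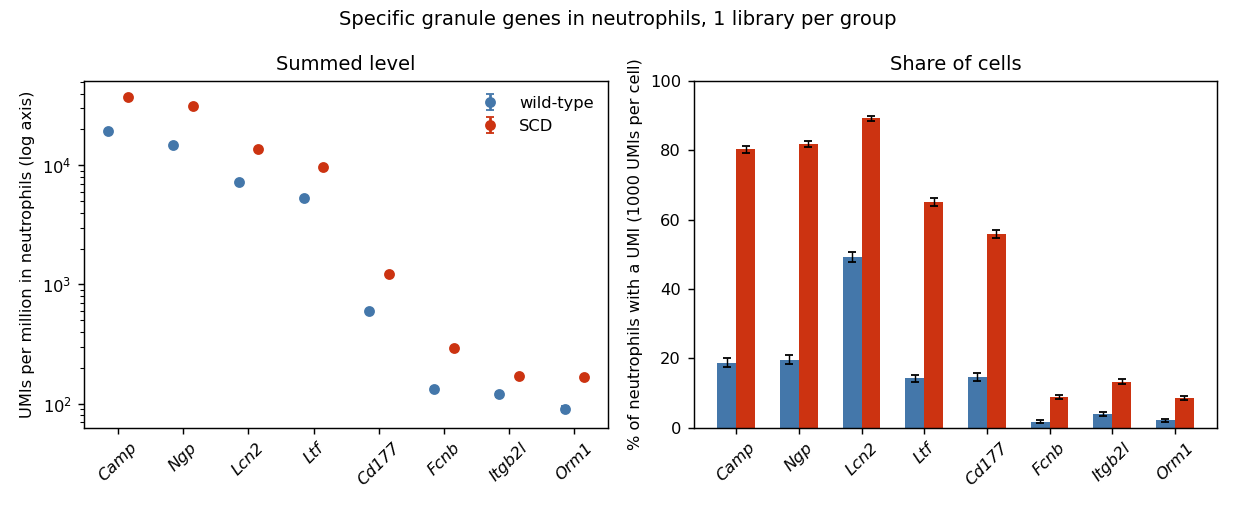
Left, CPM of each member summed over neutrophils (log axis, bars 95% Poisson intervals, mostly smaller than the points). Right, percent of neutrophils with a UMI after thinning to 1000 UMIs per cell (bars exact 95% binomial intervals). Blue is the wild-type and red the SCD library, 1 library each, and SCD is above wild-type for all 8 genes, from 89.9 and 168 CPM for Orm1 to 19547 and 37575 for Camp.

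Member UMIs were detected in a larger share of SCD than of wild-type neutrophils, while the highest share of UMIs in a single cell was alike. After thinning to 1000 UMIs per cell, Camp was detected in 18.7% (17.6 to 19.9) of 4327 wild-type and 80.3% (79.3 to 81.2) of 6999 SCD neutrophils. Conventional DCs, taken as background, had a Camp UMI in 5.05% and 35.4% of cells and an Ngp UMI in 4.48% and 29.8%, at median depths of 7465 and 9469 UMIs before thinning. The background thus differed between the libraries too, and its part in the neutrophil shares was not tested. Lcn2 was the most widely detected gene, in 49.3% and 89.2%. Cd177 was found in 14.6% and 55.9%, Ltf in 14.2% and 65.0%, and Ngp in 19.6% and 81.8%. The scarce genes were seen in few cells at this depth: Itgb2l in 3.88% and 13.2%, Orm1 in 2.06% and 8.50%, and Fcnb in 1.69% and 8.77%. At least 5 of the 8 genes were seen together in 10.3% of neutrophils from the wild-type library (9.46 to 11.3) and in 51.4% from the SCD library (50.2 to 52.6). In the median cell, members supplied 0.0842% of the UMIs in the wild-type and 5.76% in the SCD library, but the highest cell of each library reached 20.8% and 20.1%. Neutrophils with over 10% of their UMIs from members numbered 353 (8.16%) and 2574 (36.8%).

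The size of the ratio depended on how cells were weighted. The mean over cells of each cell's CPM was 14669 in the wild-type and 64934 in the SCD library, a ratio of 4.43, against 1.98 for summed UMIs. Requiring at least 1000 detected genes per cell left 2206 and 5689 neutrophils and gave 1.503. All 8 members stayed above 1 under each of 12 alternatives, with the lowest value for Itgb2l, 1.11.

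Neutrophils were next placed along maturation by the ratio of 14 late to 16 early neutrophil genes, none of them a member, and divided into 10 bins of equal size over both libraries together. The members fell along this axis in the same order in both libraries. By the mean bin of their CPM, Fcnb came first (1.60 in the wild-type, 1.77 in the SCD library), followed by Orm1 (2.19 and 2.46), Camp (2.56 and 3.06), Ngp (2.71 and 3.33) and Ltf (2.90 and 3.47). Lcn2 (3.24 and 4.03), Itgb2l (3.30 and 4.44) and Cd177 (3.32 and 4.49) came last. Itgb2l and Cd177 lay closest together, so their relative order is the least firm. With 5 bins, and with a score summed over 15 neighbouring cells, the order of all 8 was the same in both libraries.

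Fcnb was a gene of the earliest cells. It stood at 2648 CPM in wild-type precursors and 2251 CPM in SCD precursors, fell to 766 and 737 CPM in bin 1, and to 1.33 CPM (3 UMIs) and 5.74 CPM (4 UMIs) in bin 10. Orm1 was likewise highest in bin 1, at 324 and 306 CPM, and had no UMI in wild-type bin 10, which allows up to 1.64 CPM (exact Poisson bound). Camp was already high in the precursors, at 52648 and 40276 CPM, and peaked in bin 1 at 62890 and 58899 CPM. In the last bin Camp was at 447 and 2804 CPM, 141-fold and 21.0-fold below the peak.

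Ltf, in contrast, was low in precursors, at 2272 and 1366 CPM, and peaked in bin 3 of the wild-type library (16148 CPM) and bin 2 of the SCD library (13545 CPM). Ngp peaked in bins 2 and 1, at 42396 and 44045 CPM. Cd177 peaked in bin 3 in both libraries, at 1517 and 1439 CPM, and Itgb2l in the same bin, at 332 and 208 CPM. These surface members therefore reached their highest level after Camp and Fcnb. Lcn2 peaked in bin 2, at 18727 and 17114 CPM, and fell least among the matrix genes, 14.3-fold in the wild-type and 4.12-fold in the SCD library.

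**Figure D2:**
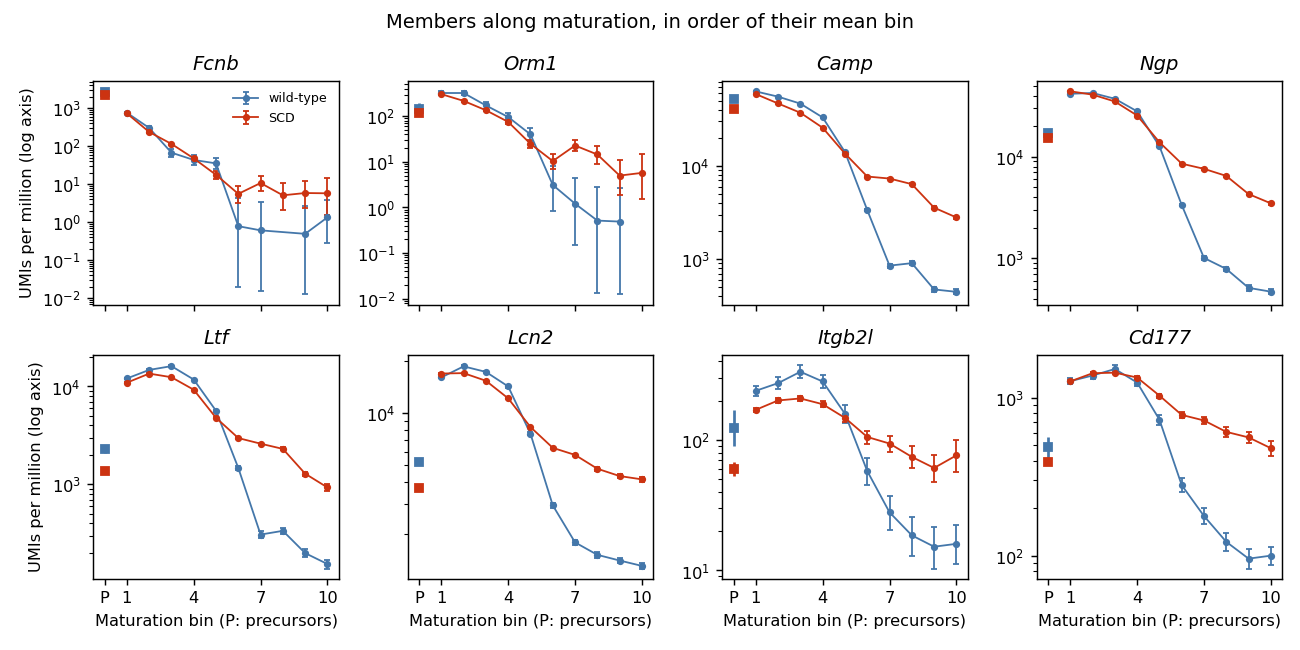
CPM (log axis) of each member in granulocyte precursors (P, squares) and in 10 maturation bins of neutrophils, blue wild-type and red SCD, bars 95% Poisson intervals. Panels follow the mean bin from Fcnb to Cd177, points with no UMI are left out (Fcnb bin 8 and Orm1 bin 10 in the wild-type library), and the libraries lie closer in bins 1 to 5 and part from bin 6 on.

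The neutrophils of the libraries fell differently over these bins. Of 4327 wild-type neutrophils, 495 lay in bins 1 to 4 (11.4%, 10.5 to 12.4), and of 6999 SCD neutrophils 4045 did (57.8%, 56.6 to 59.0). In bin 1, a set of 12 cell division genes stood at 3169 and 2967 CPM, against 32.9 and 108 CPM in bin 10. Cells of bin 1 were also the deepest, with a median of 17839 and 15446 UMIs, against 2267 and 3369 in bin 10. Members made up 13.5% of the UMIs of bin 1 in the wild-type and 13.3% in the SCD library, and the summed ratio there was 0.985. No member was 2-fold higher or lower in bin 1, where 0.194% of 2057 genes were higher and 0.194% lower by that much. Single ratios in bin 1 ran from 0.715 for Itgb2l to 1.06 for Ngp. The summed ratio was lower in the next bins, at 0.901 (0.897 to 0.906) in bin 2 and 0.854 (0.849 to 0.859) in bin 3. It was 0.836 (0.830 to 0.841) in bin 4 and 1.02 (1.01 to 1.03) in bin 5.

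The later bins looked different. In bin 7 members supplied 0.417% of wild-type UMIs and 2.41% of SCD UMIs, a ratio of 5.78, and 0.250% and 1.19% in bin 10, a ratio of 4.77. In bin 10 all 6 members that passed the expression minimum were at least 2-fold higher in the SCD library, where 3.04% of 2600 genes were higher and 11.1% lower by that much. Ngp had a ratio of 7.40 there, Camp 6.27, Ltf 6.06, Cd177 4.77, Itgb2l 4.76 and Lcn2 3.17. Itgb2l passed the minimum of 50 CPM only through the SCD library (16.0 and 76.1 CPM), so its place in this count follows partly from the filter. These ratios stand beside a background that differed as well. SCD neutrophils of bin 10 held a mean of 10.3 Camp, 12.8 Ngp and 3.42 Ltf UMIs per cell, and SCD DCs without called doublets and mixed clusters held 8.59, 7.15 and 2.66. The SCD level was not even over DCs, as these 3 genes together gave means of 5.60 and 5.81 in the DC clusters 4 and 6. In the wild-type library the values were 1.10, 1.16 and 0.377 in bin 10 and 0.339, 0.269 and 0.144 in DCs. How much of the late-bin levels was free RNA was not tested. The median cell gave a smaller level than the sum in these bins, where for bin 7 members supplied 0.0767% of the UMIs of the median wild-type cell and 0.394% of the median SCD cell. Part of each late bin's sum therefore came from a minority of member-rich cells.

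**Figure D3:**
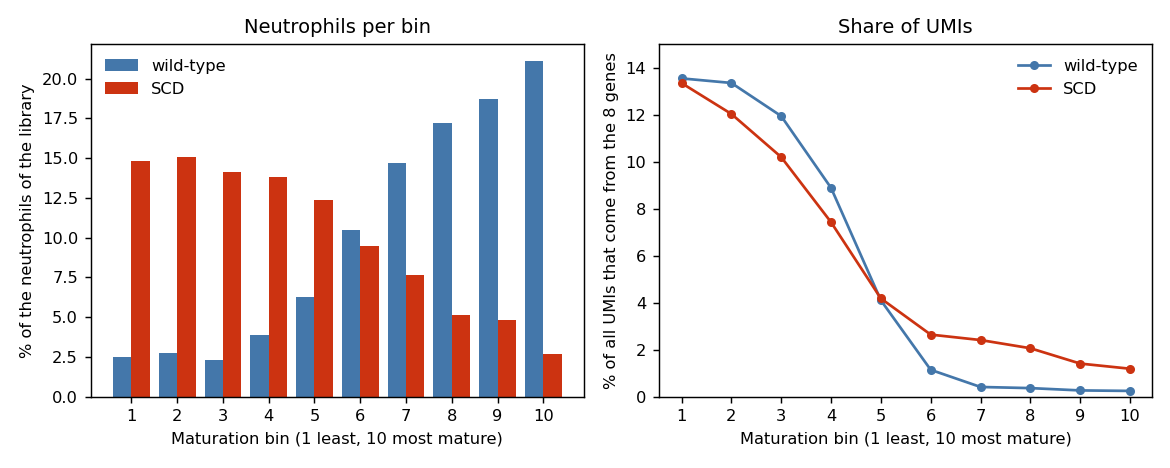
Left, percent of each library's neutrophils in 10 maturation bins, from bin 1 (least) to bin 10 (most mature). Right, percent of all UMIs of a bin that came from the 8 genes, blue wild-type and red SCD. SCD neutrophils fill the early bins (57.8% in bins 1 to 4, against 11.4%), while the share of UMIs in bin 1 is 13.5% and 13.3%.

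To set cells of like maturation beside each other, the SCD bins were weighted to the wild-type bin sizes. The mean over bins without this step was higher in the SCD library by 3.84-fold for the 8 genes together. All 8 members were at least 2-fold higher, where 4.21% of 2591 genes were higher and 22.5% lower by that much. Fcnb (33.7 and 172 CPM) and Orm1 (28.0 and 115 CPM) passed the minimum of 50 CPM only through the SCD library. Their place in this count therefore follows partly from the filter. With the weighting, the summed ratio was 1.53 (1.52 to 1.53). Cd177, at 2.28, was then the only member at least 2-fold higher, where 1.16% of the genes were higher and 6.6% lower. Lcn2 stood at 1.68, Ngp at 1.65, Itgb2l at 1.56, Ltf at 1.41 and Camp at 1.36. The earliest genes came close to equality by this measure, with 1.09 for Orm1 and 1.07 for Fcnb. Over 16 alternatives, however, Orm1 ran from 0.803 to 1.97 and Fcnb from 0.896 to 1.95. Weighted to the SCD bin sizes instead, the summed ratio was 0.973, and single members ranged from 0.810 for Itgb2l to 1.21 for Cd177.

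How much of the difference remained at like maturation depended on the measure of maturation. With the score summed over 15 neighbouring cells the ratio was 0.996 (0.989 to 1.002), and with the neutrophil clusters as strata it was 1.04 (1.03 to 1.05). Thinning to 2000 UMIs gave 1.19, and a late list of Retnlg, Mmp8, Mmp9 and Il1b gave 2.50. Only Cd177, Lcn2 and Ngp stayed above 1 under all 16 alternatives, with lowest values of 1.05, 1.05 and 1.04, and the interval of the lowest Cd177 value (0.986 to 1.12) included 1. Whether the members together differ between neutrophils of like maturation is therefore not settled by these data.

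**Figure D4:**
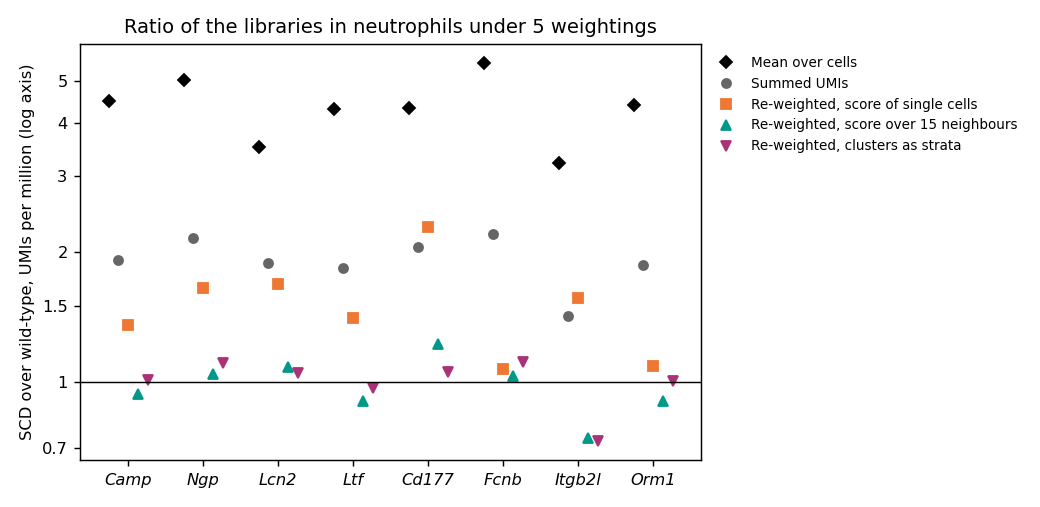
Ratio of the SCD to the wild-type library in neutrophils for each member (log axis, line at 1), as a mean over cells, from summed UMIs, and re-weighted to wild-type maturation by 3 measures. Summed UMIs give 1.42 (Itgb2l) to 2.20 (Fcnb), and the re-weighted values move toward 1 or below it with the neighbour score and with clusters.

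In the 5 neutrophil clusters rich in members (1, 2, 7, 9 and 22, of which 22 had 33.3% and 65.2% called doublets), Cd177 had ratios of 0.961 to 1.03, and every interval included 1. Camp ranged from 0.824 to 0.946 and Ltf from 0.810 to 0.939, with all 5 intervals below 1. Of 1303 genes compared over 4 of these clusters, 16.0% were as low as Camp in all of them and 13.7% as low as Ltf. Ngp ran from 0.882 to 1.11 and Lcn2 from 0.846 to 1.11, with intervals on either side of 1. Orm1 ran from 0.713 to 1.27, resting on few UMIs in some clusters. Fcnb ran from 0.790 to 1.86 in 4 clusters and has no ratio in cluster 2, where it had 0 wild-type and 38 SCD UMIs.

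Itgb2l was lower in the SCD library in every one of these clusters, although it was higher over all neutrophils. In cluster 1 the wild-type level was 325 CPM and the SCD level 233 CPM, a ratio of 0.717 (0.664 to 0.775). Cluster 2 had 246 and 140 CPM, a ratio of 0.571 (0.498 to 0.657). In clusters 7, 9 and 22 the ratios were 0.642, 0.688 and 0.616. Of the same 1303 genes, 4 (0.307%) were as low or lower in all of them: Itgb2l, Cd74, Stk39 and Ubb. Itgb2l was singled out after its values had been seen, and no test was made.

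The mature clusters 0 and 3, with 85.7% of wild-type neutrophils but 24.8% of SCD neutrophils, had few transcripts of most members, apart from Lcn2. Camp, Ngp and Ltf together gave a mean of 0.372 UMIs per cell in the wild-type and 3.22 in the SCD library in cluster 0, and 0.492 and 4.15 in cluster 3. The SCD over wild-type ratios in CPM in clusters 0 and 3 were 12.0 and 8.39 for Camp, 8.79 and 5.96 for Ngp and 7.60 and 5.86 for Ltf. They were lower for Lcn2, at 1.27 and 1.64, and for Cd177, at 1.09 (0.756 to 1.52) and 2.68 (2.11 to 3.46). In DCs of the same libraries Camp, Ngp and Ltf together gave 0.731 and 5.60 in conventional DC cluster 4 and 0.841 and 5.81 in plasmacytoid DC cluster 6. The part of free RNA in these values was not tested. Lcn2 gave 2.47 and 2.75 UMIs per cell in cluster 0 and 3.20 and 6.49 in cluster 3, against 0.191 and 1.09 in conventional DC cluster 4. Over all DCs without called doublets and mixed clusters, the mean was 1.005 member UMIs per cell in the wild-type and 22.3 in the SCD library. The SCD mean lay above the SCD medians of clusters 0 and 3 (5 and 8) and of DC clusters 4 and 6 (7 each). Taking these means off each neutrophil lowered the ratio at like maturation from 1.53 to 1.28, so for mature SCD cells more was taken off than the median cell held.

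The precursors, marked by azurophil granule genes, went the other way from the sum over all neutrophils. The 8 genes summed to 80643 CPM in 13 wild-type precursor cells and to 63287 CPM in 167 SCD ones, a ratio of 0.785 (0.775 to 0.795). All 8 ratios were below 1, from 0.481 for Itgb2l (0.345 to 0.687) to 0.886 for Ngp (0.863 to 0.911), and only the interval of Orm1 (0.795, 0.590 to 1.09) included 1. None was 2-fold higher or lower on the log2 scale, where Itgb2l just missed at -0.996, and 1.05% of 2093 genes were higher and 0.334% lower by that much. The wild-type value rests on 13 cells.

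Other lists of neutrophil genes had lower median log2 ratios than the 0.93 of the members. Of 11 other granule proteins of the same stage, 10 were expressed, none was 2-fold higher or lower, and their median log2 ratio was 0.72. Olfm4 (olfactomedin 4) stood at 0.92, Cybb, a subunit of the NADPH oxidase, at 0.89, Chil3 at 0.82 and Mmp8 (collagenase) at 0.76, while Pglyrp1 was at 0.10, Cyba at -0.19 and Hp (haptoglobin) at -0.32. None of the 5 azurophil genes reached the expression minimum in neutrophils, with Prtn3 (proteinase 3) at 6.68 and 48.6 CPM. Of 5 gelatinase granule genes 1, Slc11a1, was at least 2-fold lower (-1.82), and their median was -0.21. Of 8 transcription factors 6 were expressed, with a median of -0.55, against -0.41 over all 2455 genes. One of them, Cebpb, was at least 2-fold lower (-1.77), as were 19.6% of all genes, and Cebpe stood at 0.90. Among 7 partners and receptors, 3 were expressed, with a median of -0.18 and Itgb2 at -0.18. Of the close relatives that reads could be confused with, Orm2 and Orm3 had 1 to 3 UMIs per library, and Fcna had 32 and 106. Itgb2, the relative of Itgb2l, was expressed in neutrophils, with the log2 ratio of -0.18 given above.

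The genes with profiles most like the members' mean over the bins were Cybb (r = 0.995), Abca13 (0.994), Serpinb1a (0.993), Chil3 (0.991) and Arhgdib (0.989), over 20 points (10 bins in each of 2 libraries) and 3332 candidate genes. Cybb was also the gene most like Ngp, Ltf and Lcn2, and Anxa3 the one most like Cd177 (0.994). Golim4 was nearest to Itgb2l (0.989), Prom1 to Orm1 (0.987) and Igfbp4 to Fcnb (0.985). Among the members r ran from 0.778 for Fcnb and Cd177 to 0.997 for Camp and Ngp. The points share libraries, cells and the maturation score, so these values are descriptions.

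Member transcripts also appeared in cells that are no neutrophils. After thinning to 1000 UMIs, 15.3% (14.3 to 16.4) of the wild-type and 61.7% (60.1 to 63.4) of the SCD cells other than neutrophils and precursors had at least 1 member UMI, with median depths of 8594 and 10648 UMIs before thinning. In the SCD library the share was 56.0% in monocytes, 61.3% in conventional DCs, 64.1% in plasmacytoid DCs, 65.1% in B cells, 76.5% in red pulp macrophages, whose median depth was 1544 UMIs, and 90.9% (82.2 to 96.3) in 77 erythroid cells. In the wild-type library the first 5 of these types had 22.2%, 13.5%, 12.4%, 13.6% and 19.7%, and 15 of 60 erythroid cells had a member UMI (14.7% to 37.9%). The erythroid cells also had the highest summed levels of these types, at 5434 and 38897 CPM. DCs and B cells are not known to make these granule proteins, so a UMI in a cell is not read here as expression. Free RNA was not modelled, and its part in these shares was not tested.

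In CPM, cells other than neutrophils held members at 2.56% of the neutrophil level in the wild-type (1225 CPM) and 6.15% in the SCD library (5821 CPM). Most of this sat in few cells, since the 5% of cells with most member UMIs held 90.5% and 84.7% of it. Over all DCs, with called doublets and mixed clusters included, the share of Camp was close to that of neutrophils. Camp made up 40.9% of the member UMIs of wild-type neutrophils, 38.1% in conventional DCs and 39.1% in plasmacytoid DCs, and 39.7%, 39.3% and 37.2% in the SCD library. Without called doublets and mixed clusters, wild-type DCs held 1031 Camp and 634 Lcn2 UMIs among 3053 member UMIs. That is a lower Camp share and a higher Lcn2 share than in wild-type neutrophils. SCD DCs held 9923 Camp and 3913 Lcn2 UMIs among 25744. Wild-type monocytes and red pulp macrophages had Camp at 16.4% and 31.0% of their member UMIs. Lcn2 made up 27.1% in these macrophages (35 UMIs) against 15.3% in neutrophils. Over all these cells S100a8 was at 2.89% and 6.61% of its neutrophil CPM and Retnlg at 3.30% and 7.47%. By type they could differ from the members. Without called doublets, wild-type red pulp macrophages held members at 0.422% of the neutrophil level and S100a8 at 1.20%, against 0.432% and 2.95% with them. Wild-type monocytes without called doublets held members at 0.556%, Retnlg at 0.382% and Mmp8 at 7.36%, against 0.681%, 2.55% and 8.49% with them, so the order of Retnlg and the members turned. Plasmacytoid DC cluster 17 and conventional DC cluster 19 carried the most, 14430 and 41750 CPM and 12590 and 45140 CPM, and 90.1% and 46.9% of cluster 17 and 79.8% and 15.2% of cluster 19 were called doublets. Without these 2 clusters 14.4% and 60.2% of the other cells had a member UMI.

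**Figure D5:**
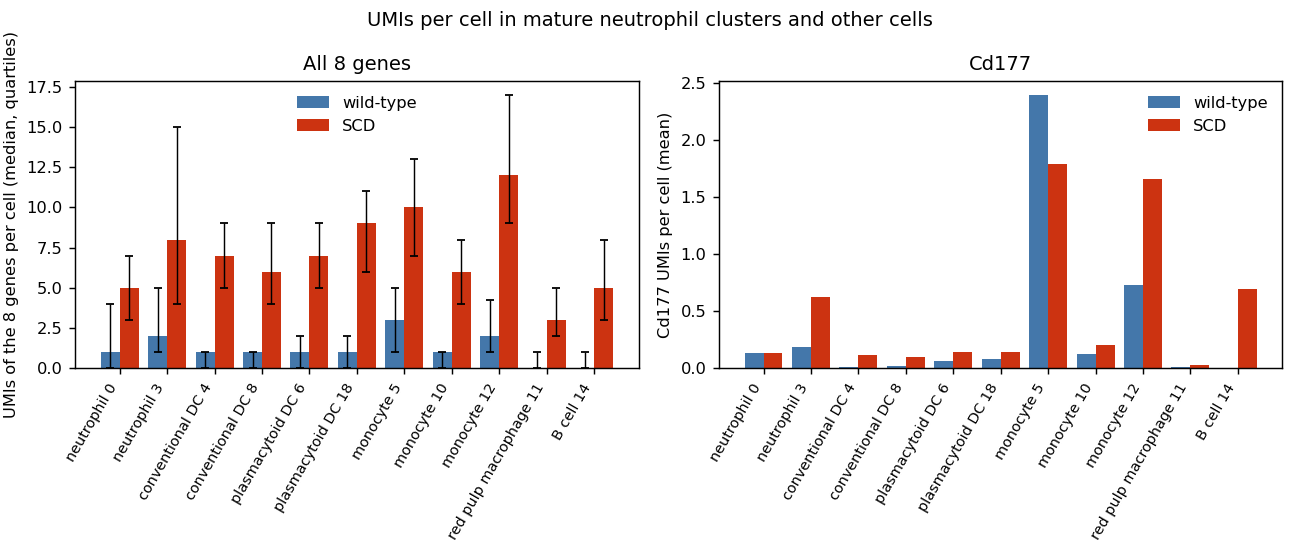
Left, UMIs of the 8 genes per cell (bars medians, error bars quartiles) in mature neutrophil clusters 0 and 3 and in other cell clusters, blue wild-type and red SCD. Right, mean Cd177 UMIs per cell. Medians of mature neutrophils (1 and 2 in the wild-type, 5 and 8 in the SCD library) lie near those of DCs, and Cd177 stands out in monocyte cluster 5.

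Monocytes held Cd177, and at a lower level Fcnb, out of proportion to the other members. In monocyte cluster 5, led by Vcan, Fn1 and F13a1, the wild-type level of Cd177 was 220 CPM (209 to 232) and the SCD level 144 CPM (137 to 151). After thinning, 18.6% and 14.1% of these monocytes had a Cd177 UMI, against 0.646% and 4.38% of conventional DCs. The cluster held 660 Cd177 UMIs per 100 Camp UMIs in the wild-type and 47.7 in the SCD library, so Cd177 did not follow the neutrophil mixture, in which it made up 1.25% and 1.30% of the member UMIs. The SCD over wild-type ratio of Cd177 in this cluster was 0.655 (0.610 to 0.704), below 1, where Camp in the same cells had 9.06. Without called doublets the levels were 224 and 141 CPM. In monocyte clusters 10 and 12 Cd177 was at 17.5 and 30.8 CPM and at 42.2 and 83.1 CPM. Fcnb made up 1.51% and 1.25% of the member UMIs of all monocytes, against 0.277% and 0.308% in neutrophils. Fcnb was found in cluster 12 at 32.9 and 47.3 CPM, and in cluster 5 at 3.91 and 13.3 CPM. The 44 wild-type cells of cluster 12 held 28.4 Fcnb UMIs per 100 Camp UMIs, with means of 0.568 Fcnb and 2 Camp UMIs per cell. Its 385 SCD cells held means of 0.943 Fcnb and 31.6 Camp UMIs, a far lower share of Fcnb.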

How the data were processed

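UMI counts per gene and cell were deposited by the authors as raw counts, with no normalization. The submitters' processing notes name Cell Ranger 4.0.0, R 4.4, Seurat 3.2.3, Scanpy 1.6.0 and GRCm38.p6. Following the study's methods, cells were kept when they had between 500 and 5000 genes, less than 15% mitochondrial UMIs and less than 30% ribosomal UMIs. Clustering used the 14564 genes found in 20 or more cells. Counts were scaled with scran 1.30.0 (R 4.3.3) and clustered with the Leiden algorithm (resolution 1, 30 components, 2000 variable genes, 15 neighbours, no batch correction) in scanpy 1.11.5 and leidenalg 0.10.2 under Python 3.11.15, with numpy 2.4.6, scipy 1.17.1 and pandas 2.3.3. The 8 members were left out, so that neutrophils were defined without them. Clusters were named from marker lists by the mean of 8 best markers, at least 3 detected, with a margin of 0.05, and these names are not those of the study. Doublets were called with Scrublet (357 wild-type and 211 SCD cells, 3.78% and 1.98%) and kept.

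UMIs were summed per library and class, since cells are not replicates. Each value is given per 1000000 UMIs (CPM) with exact Poisson intervals, shares with Clopper-Pearson intervals, all for counting error only. Log2 ratios used a pseudocount of 5 CPM, and expressed genes had at least 50 CPM and 20 UMIs in 1 library. Shares used cells thinned to 1000 UMIs, which left out 46 wild-type and 12 SCD neutrophils. The calculations were tested on simulated data. The members and all gene lists were chosen with earlier results of these data known. Named genes were the 8 members, the lists, and the genes most alike by correlation over bins (10 for the mean, 3 for each member). Alternatives changed 1 choice at a time, and 5 were chosen after seeing the data: the mean over cells, the doublet-rich cluster left out of each ratio, the DC UMIs taken off and the mixed DC clusters left out. Promoter letters came from RefSeq and gene positions from GENCODE.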

Additional observations from a re-analysis of the deposited data

Results flagged for a closer look

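The direction of the difference between the libraries turned between granulocyte precursors and all neutrophils together for each member but Orm1. This contrast was not tested. In granulocyte precursors the SCD over wild-type ratio was 0.765 for Camp, 0.886 for Ngp, 0.601 for Ltf, 0.703 for Lcn2, 0.850 for Fcnb, 0.808 for Cd177 and 0.481 for Itgb2l, with intervals below 1, and 0.795 for Orm1, whose interval included 1. In all neutrophils together all 8 ratios were above 1. Within neutrophils, however, the summed ratio was also below 1 in bins 1 to 4 (0.985, 0.901, 0.854 and 0.836). It was 0.946, 0.864, 0.936 and 0.856 in clusters 1, 2, 7 and 22, and 1.01 in cluster 9. The wild-type precursors numbered 13. For Cd177 in monocytes the ratio was 0.807 (0.756 to 0.862), against 2.05 in neutrophils, and this difference was not tested either. The monocyte value follows cluster 5 (0.655), since Cd177 had ratios of 1.77 (0.831 to 3.42) in cluster 10 and 1.97 (1.38 to 2.91) in cluster 12.

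Barcodes that the cell filters removed also held member UMIs and entered no comparison. In the SCD library, members stood at 3165 CPM in barcodes with over 5000 genes, 6547 CPM in those with under 500 genes and 2253 CPM in those with a high mitochondrial or ribosomal share. The wild-type values were 545.9, 409.8 and 111.3 CPM. Kept cells of all types had 58020 CPM in the SCD and 13650 CPM in the wild-type library.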

How the results depend on the processing

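With 1 library per group, no result has a replicate check, and no paired analysis was possible because the groups have a lone mouse each. The summed ratio of the 8 members in neutrophils (1.98) stayed above 1 under every alternative: 1.503 with at least 1000 genes, 1.97 with no upper limit on genes or at resolution 2, 1.99 without doublets, 2.12 with total count scaling, 2.67 with median-of-ratios scaling, 2.08 with members out of the denominator, 4.41 as raw UMIs per cell, 4.43 as a mean over cells and 2.03 without the doublet-rich cluster. The ratio at equal maturation (1.53) was 1.56 with 5 and 1.49 with 20 bins, 1.55 and 1.19 with cells thinned to 500 and 2000 UMIs, 0.996 with the score over 15 neighbours, 2.50 with the other late list, 1.04 with clusters as strata, 1.28 with DC UMIs taken off, 1.54 without the doublet-rich cluster or doublets, 1.30 with at least 1000 genes, 1.40 without the mitochondrial and ribosomal filter, 1.57 with total count scaling and 1.52 at resolution 2 or with members kept. The cause was not tested. Shares of other cells with a member UMI (15.3% and 61.7%) were 62.6% and 99.3% without thinning and 9.05% and 42.3% at 500 UMIs. They were 14.3% in the wild-type library without doublets and 14.2% without the mitochondrial and ribosomal filter, and 57.3% in the SCD library with no upper limit on genes. Without a minimum of CPM 866 genes in place of 509 passed 2-fold, and with median-of-ratios scaling 7 in place of 3 members did. The order of the 8 genes was the same in 8 of 8 positions under both alternatives. Depth limits Fcnb and Orm1 in late bins, where single UMIs decide the value.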
